A study of Homo sapiens with 9 samples.

Results

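Genes of glucose transport, glycolysis, the pyruvate dehydrogenase kinases and glycogen metabolism were examined in cells described as an insulin-resistant human hepatoma line. The set held 51 genes listed by name, matched to the platform's gene symbols in current or older form. Of these, 50 had a probe set of their own, and 46 of the 12240 genes tested in all were bright enough to be tested. SLC2A3, a glucose transporter, was read only by probe sets shared with other genes. The 4 members below the brightness filter were a transporter and isozymes known from liver or muscle: SLC2A2, and PKLR, GYS2 and PYGM.

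The protocols describe the cells as R-HepG2, an insulin-resistant form of the hepatoma line HepG2, kept in serum-free DMEM overnight and then treated for 4 h. One group received plain DMEM (medium), another insulin and another biomineralized insulin, with both preparations at 40 ug/ml. Each group had 3 one-colour Affymetrix arrays. By the cell line tags the medium arrays held R-HepG2 and the treated ones HepG2, whereas the protocols name R-HepG2 throughout. If the tags are right, the comparisons with medium also compare cell forms, and the comparison between the 2 insulin preparations does not. No group received a mineral component alone, so its part and that of the insulin cannot be told apart. Nothing in the labels says that replicates were separate cultures, so p-values measure only the spread between these arrays, which may be technical.

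Glucose enters cells through SLC2A transporters and is trapped by hexokinase. It is then split to pyruvate by glycolysis, whose pace depends strongly on phosphofructokinase and on the PFKFB enzymes that set the level of its activator. Pyruvate dehydrogenase kinases hold pyruvate back from the mitochondrial route, which favours lactate. Liver cells also store glucose as glycogen: glycogen synthase builds it, glycogen synthase kinase restrains the synthase, phosphorylase breaks glycogen down, and PPP1R3 proteins bring a phosphatase to the particle that favours synthesis. Insulin is a classical stimulus of glycogen synthesis in liver.

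Array medians lay between 5.46 and 5.50 log2, and arrays of one group correlated at 0.998 across probe sets. Defining hepatocyte transcripts were dim: 10 of 15 markers with a probe set lay below the brightness filter, among them ALB at a mean of 3.28 and AFP at 3.00 log2 in medium. The brightest hepatocyte marker, APOA1, averaged 5.87 log2 over all arrays. The arrays therefore do not show the liver markers that the label HepG2 implies, and the cells are called here by their label only. The summed level of the hepatocyte list was 60.4 to 62.2 in medium, 60.9 to 61.9 in insulin and 61.0 to 62.3 in biomineralized insulin. Of 6 lung epithelium markers 3 passed the filter, with sums of 26.6 to 27.4, 27.1 to 27.4 and 27.9 to 28.3, and NKX2-1 was called higher against medium with biomineralized insulin by 0.59 log2, while its other bright probe set read -0.093. Sums over 3 fibroblast markers were 15.9 to 16.0, 15.5 to 15.7 and 15.3 to 15.5, and over 3 skeletal muscle markers 13.9 to 14.0, 13.99 to 14.05 and 14.4 to 14.9. In these lists PDGFRB was called at -0.42 (its bright probe sets ran from -0.42 to 0.16), COL1A1 at -0.20 with overlapping groups (adjusted p = 0.0495) and ACTA1 at 0.50. COL1A2, CKM and MYH2 lay below the filter. The lung markers SFTPB (0.14) and SFTPC (0.12) were not called. In lists for squamous epithelium, leukocytes and endothelium no tested marker was called with biomineralized insulin against medium. The part of such markers in the results was not tested.

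A property of the arrays touches each direction given here. The 24 poly-A spike-in features, control transcripts added to each RNA sample, averaged 7.22 log2 in medium, 7.23 in insulin and 7.62 in biomineralized insulin, and the lowest biomineralized array (7.50) was above the highest other array (7.29). On the deposited scale the median change of all tested genes was 0.022 log2 for biomineralized insulin against medium. Centring the arrays on the spike-ins moved that median to -0.38. The shift is shared by all genes and known from 3 arrays a group. Spike-in means ran from 7.16 to 7.29 in medium and from 7.50 to 7.80 in biomineralized insulin. That spread between arrays enters every gene after centring, so a lost call is not by itself a changed direction. Directions below are on the deposited scale, relative to the typical gene on the array, and the value after spike-in centring is given beside them. The arrays read bulk RNA, so fewer cells of a type and less RNA per cell cannot be told apart.

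The promoters of the members that moved furthest in each direction against medium, PFKFB4 and PKM upward and PPP1R3C and GSK3B downward, are shown as the 250 bases before the RefSeq start (GRCh38.p14), 5′ to 3′ on the gene's strand. Capitals mark ACGTG on either strand, a form of the core that hypoxia-inducible factors recognise and part of the E-box CACGTG. Other forms of that core were not searched.

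PFKFB4 promoter, chr3:48556804-48557053, minus strand: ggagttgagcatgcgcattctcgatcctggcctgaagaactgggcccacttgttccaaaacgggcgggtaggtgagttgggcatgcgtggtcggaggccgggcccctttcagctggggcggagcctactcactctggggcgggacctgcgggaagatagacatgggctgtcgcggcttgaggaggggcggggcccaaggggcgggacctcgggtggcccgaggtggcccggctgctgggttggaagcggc

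PKM promoter, chr15:72231191-72231440, minus strand: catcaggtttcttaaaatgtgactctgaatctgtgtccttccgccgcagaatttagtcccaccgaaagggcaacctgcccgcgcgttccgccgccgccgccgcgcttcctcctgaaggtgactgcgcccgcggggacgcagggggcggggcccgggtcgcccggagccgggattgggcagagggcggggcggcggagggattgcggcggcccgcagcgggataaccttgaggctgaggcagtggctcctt

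PPP1R3C promoter, chr10:91633072-91633321, minus strand: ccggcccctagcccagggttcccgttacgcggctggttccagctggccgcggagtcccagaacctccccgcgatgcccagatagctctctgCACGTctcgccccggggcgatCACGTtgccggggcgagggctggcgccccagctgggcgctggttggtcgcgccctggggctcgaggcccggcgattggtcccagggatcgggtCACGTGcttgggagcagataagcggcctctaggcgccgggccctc

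GSK3B promoter, chr3:120094448-120094697, minus strand: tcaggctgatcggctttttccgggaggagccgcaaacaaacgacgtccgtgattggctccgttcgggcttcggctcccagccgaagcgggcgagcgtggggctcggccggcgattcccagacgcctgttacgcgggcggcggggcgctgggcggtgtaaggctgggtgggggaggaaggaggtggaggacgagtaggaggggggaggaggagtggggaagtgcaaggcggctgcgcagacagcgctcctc

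The promoter of PPP1R3C held ACGTG at 4 positions counted over both strands, and 2 of these overlapped in an E-box CACGTG that began 45 bases before the start. The other promoters printed held no ACGTG. Over all 35116 promoter windows of this length, 18.5% held ACGTG on either strand and 6.34% held CACGTG. Among 75 windows of the 44 members that had one, 34.7% held ACGTG and 16.0% held CACGTG, and every CACGTG also counts as an ACGTG match. By gene, ACGTG stood in 6 of 16 members called higher against medium, 5 of 9 called lower and 11 of 17 not called, and CACGTG in 2, 3 and 6 of these. Over all 27305 genes with a window, 21.7% held ACGTG and 7.73% CACGTG. Other motifs were also searched. TGCNCNC, a pattern looser than the metal response core, stood in 64.0% of member windows and 49.1% of all windows. The C/EBP-ATF core TGATGNAA stood in 4.0% and 3.14%. The heat shock core GAANNTTC stood in 1.33% and 5.78%, and the sterol response core TCACNCCAC in 1.33% and 0.883%. A match describes these letters only.

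With biomineralized insulin, HK1, HK2, PFKFB4, PKM, ENO2 and GYS1 had the largest rises on the deposited scale. PPP1R3C and GSK3B had the largest falls. These ranks hold for the probe set used for each gene. Against medium, 17 of 46 tested members were called higher and 10 lower, 58.7% in all, where 50.9% of all 12240 tested genes were called. By direction the members stood at 37.0% higher and 21.7% lower, and all genes at 25.7% and 25.2%. The median absolute change was 0.16 log2 among members and 0.16 among all genes. The members' share was thus near the background, and the description below rests on individual genes. After spike-in centring, 6 of the 17 higher members still had a positive change and 2 of them, PFKFB4 and PKM, were still called higher. All 10 lower members were still called lower, but this centring lowered every change by 0.40 log2, so it could not turn a fall. On that scale 67.4% of members and 74.5% of all genes were called lower. No tested member had a group mean below the filter.

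**Figure D1:**
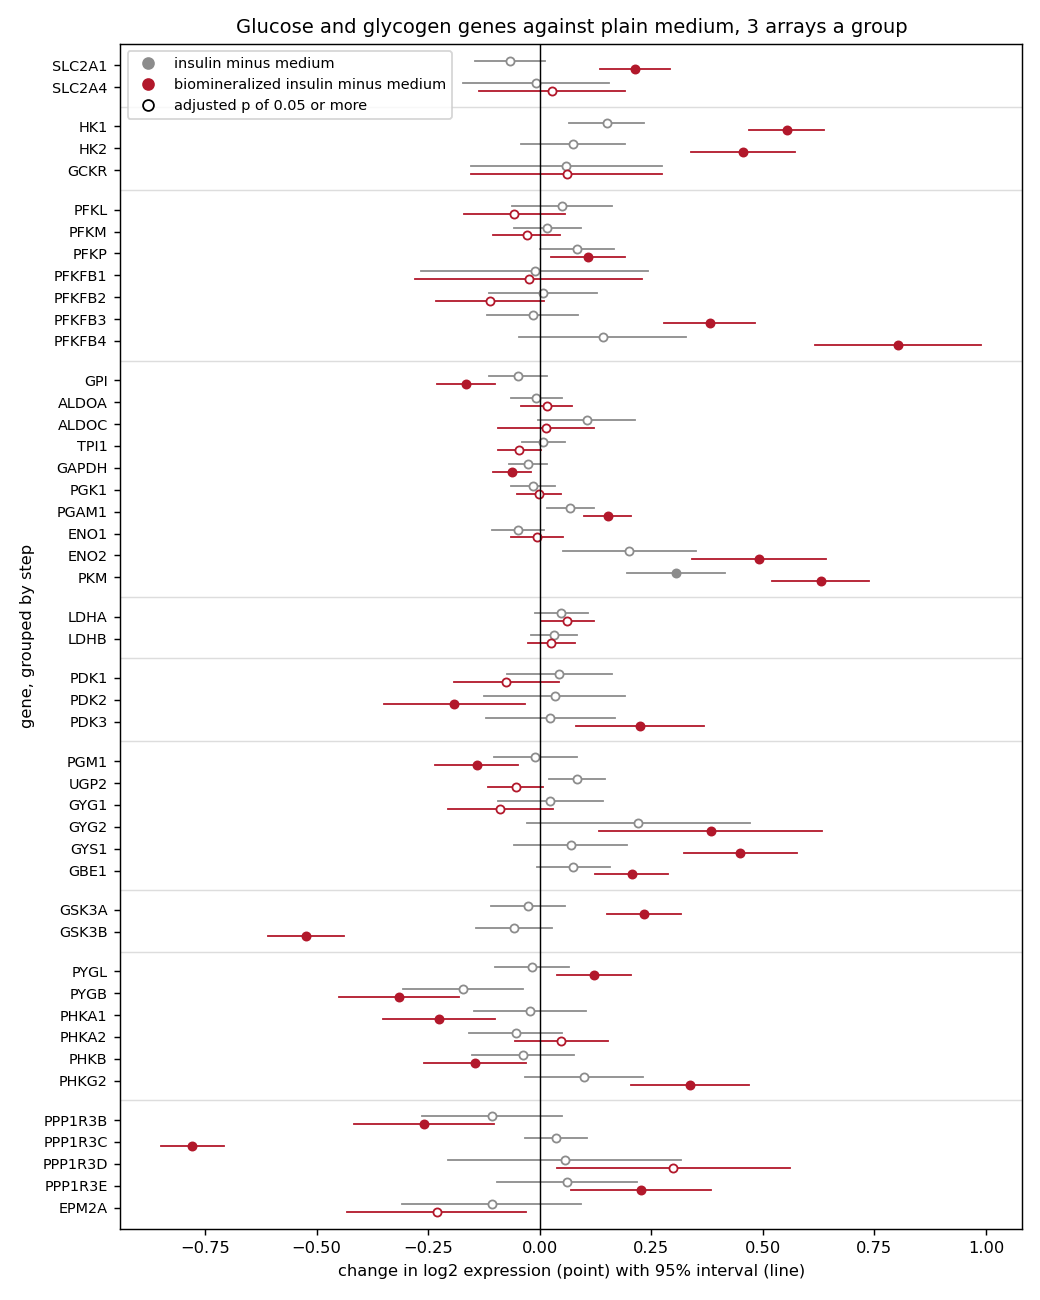
Change in log2 expression of the 46 tested members, insulin minus medium (grey) and biomineralized insulin minus medium (red), with 95% intervals from the limma fit, 3 arrays a group, on the deposited scale. Filled points have an adjusted p under 0.05. Spike-in centring would move the red points left by 0.40 log2.

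Among transporters, SLC2A1, the widespread basal glucose transporter, rose modestly. Its values were 10.59, 10.54 and 10.58 log2 in medium, 10.44, 10.50 and 10.57 in insulin and 10.76, 10.82 and 10.78 in biomineralized insulin. All biomineralized arrays lay above the other 6. The change was 0.21 log2 (95% interval 0.14 to 0.29, adjusted p = 0.000129) and turned to -0.19 after spike-in centring. SLC2A4, the insulin-regulated transporter of muscle and fat, changed by 0.028 (-0.14 to 0.19) and was not called. SLC2A2, the transporter typical of liver, read 3.22 to 3.81 log2 over the 9 arrays.

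Both hexokinases tested rose on the deposited scale. HK1, which phosphorylates glucose in most tissues, read 10.29, 10.31 and 10.39 log2 in medium, 10.40, 10.50 and 10.53 in insulin and 10.90, 10.85 and 10.89 in biomineralized insulin. The groups did not overlap, and the insulin arrays lay between the others. Against medium HK1 rose 1.47-fold, by 0.55 log2 (SE 0.040, interval 0.47 to 0.64, adjusted p = 7.23e-09). The probe set used is of a kind that can also read related transcripts. The other probe sets of HK1 rose less, by 0.20, 0.31 and 0.33. HK2, the inducible hexokinase of insulin-sensitive tissue and tumours, read 8.98, 8.79 and 8.78 in medium, 8.92, 8.87 and 8.98 in insulin and 9.28, 9.36 and 9.27 in biomineralized insulin. The biomineralized arrays stood above all others, while medium and insulin overlapped. HK2 rose 1.37-fold, by 0.46 log2 (SE 0.055, interval 0.34 to 0.57, adjusted p = 2.96e-06), and its other probe set read 0.12. After spike-in centring HK1 changed by 0.15 (adjusted p = 0.148) and HK2 by 0.052 (adjusted p = 0.642), and neither was called. GCKR, the regulatory protein of liver glucokinase, was not called at 0.060 (-0.15 to 0.27).

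At the phosphofructokinase step, 3 of 7 genes were called higher on the deposited scale: the bifunctional regulators PFKFB3 and PFKFB4 and the subunit PFKP. Over all tested genes 25.7% were called higher, and a count over so few genes is not read as a result for the step. PFKFB4, which makes and removes the activator of phosphofructokinase, read 7.71, 7.58 and 7.80 log2 in medium, 7.64, 7.83 and 8.06 in insulin and 8.57, 8.38 and 8.56 in biomineralized insulin. The last group lay above the rest, and medium and insulin overlapped. PFKFB4 rose 1.74-fold, by 0.80 log2 (SE 0.088, interval 0.62 to 0.99, adjusted p = 1.05e-06), the largest rise among the 46 members, and was 0.40 higher after spike-in centring. Its 3 other probe sets changed by 0.0064, 0.25 and 0.38, and only the first of these passed the brightness filter. PFKFB3, the isozyme with the strongest kinase bias, rose by 0.38 (interval 0.28 to 0.48, adjusted p = 4.89e-06). Its second bright probe set read -0.047, and spike-in centring gave -0.023. PFKFB1 and PFKFB2 changed by -0.025 (-0.28 to 0.23) and -0.11 (-0.23 to 0.011) and were not called. Of the subunits, PFKP rose by 0.11 (adjusted p = 0.0296) and turned to -0.30 after spike-in centring, while PFKL at -0.057 (-0.17 to 0.056) and PFKM at -0.029 (-0.10 to 0.046) were not called, and spike-in centring gave -0.46 and -0.43 for them. The PFKP call was lost without medium array 1, medium array 2 or biomineralized array 3 (highest adjusted p 0.138).

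**Figure D2:**
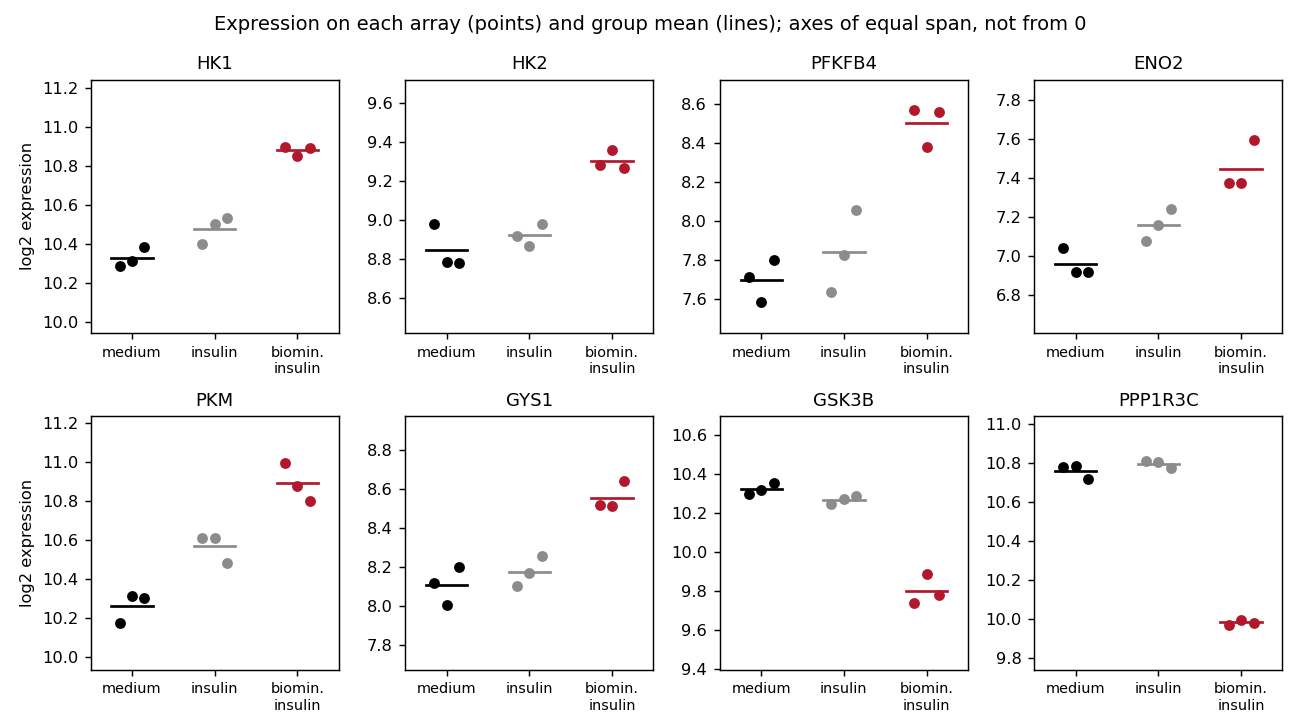
Log2 expression on each array (points) and group means (lines) for the 8 members described in full, with axes of equal span. Biomineralized insulin lies above both other groups for HK1, HK2, PFKFB4, ENO2, PKM and GYS1 and below them for GSK3B and PPP1R3C on the deposited scale. After spike-in centring only PFKFB4 and PKM remain called higher against medium.

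Among the remaining glycolytic enzymes, 3 of 10 were called higher and 2 lower, where 25.7% of all tested genes were called higher and 25.2% lower. PKM, the pyruvate kinase of most tissues and tumours, read 10.17, 10.31 and 10.30 log2 in medium, 10.61, 10.61 and 10.48 in insulin and 11.00, 10.88 and 10.80 in biomineralized insulin. The 3 groups stood apart in that order. Against medium it rose 1.55-fold, by 0.63 log2 (SE 0.051, interval 0.52 to 0.74, adjusted p = 3.49e-08), and by 0.22 after spike-in centring. Its bright probe sets disagreed in size, with changes of 0.060, 0.13, 0.47 and 0.63. The brightest of them is of a kind that can also read related transcripts, and without such probe sets the change was 0.13 (adjusted p = 0.104).

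ENO2, the neuronal enolase, read 7.04, 6.92 and 6.92 log2 in medium, 7.08, 7.16 and 7.24 in insulin and 7.38, 7.38 and 7.60 in biomineralized insulin. The groups did not overlap. It rose 1.41-fold, by 0.49 (SE 0.070, interval 0.34 to 0.64, adjusted p = 1.99e-05), from its single probe set, and changed by 0.087 after spike-in centring (adjusted p = 0.475). ENO1, the common enolase, was not called at -0.0061 (-0.065 to 0.053). PGAM1, phosphoglycerate mutase, rose by 0.15 (adjusted p = 7.35e-05), with 4 probe sets between 0.15 and 0.35, and turned to -0.25 after spike-in centring.

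GPI, glucose phosphate isomerase, fell by 0.16 log2 (interval -0.23 to -0.099, adjusted p = 0.000268). GAPDH, a dehydrogenase often used as a reference gene, fell by 0.062 (-0.10 to -0.020, adjusted p = 0.0163), a call lost without medium array 2 (adjusted p = 0.0508). After spike-in centring these values were -0.57 and -0.47. The aldolases ALDOA and ALDOC and the isomerase TPI1 were not called, at 0.015, 0.014 and -0.045. PGK1, phosphoglycerate kinase, changed by -0.0014 on the probe set used, and its 8 other probe sets ranged from 0.037 to 0.19. PGK1 was called higher with its most variable probe set (0.19) and as the mean of its probe sets (0.11). The other probe sets of TPI1 reached -0.15.

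For lactate dehydrogenase, which turns pyruvate into lactate, neither subunit was called. LDHA changed by 0.062 log2 (0.0023 to 0.12, adjusted p = 0.0777) and LDHB by 0.026 (-0.026 to 0.078). The 4 probe sets of LDHA read 0.062 to 0.11. LDHA was called without biomineralized array 3 and as the mean of its probe sets, and after spike-in centring both fell, by 0.34 and 0.38.

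The pyruvate dehydrogenase kinases moved apart on the deposited scale. PDK3 rose by 0.22 log2 (interval 0.080 to 0.37, adjusted p = 0.0111), PDK2 fell by 0.19 (-0.35 to -0.033, adjusted p = 0.0420), and PDK1, the kinase known as a hypoxia target, was not called at -0.075 (-0.19 to 0.043). After spike-in centring PDK3 stood at -0.18 and PDK2 at -0.60. The other bright probe sets of PDK2 read 0.085 and 0.15, opposite to the one used. Leaving out 1 array ended the PDK2 call for 4 arrays (medium 2 and 3, biomineralized 1 and 3, highest adjusted p 0.152) and the PDK3 call for 2 (medium 1 and biomineralized 3, highest adjusted p 0.0707).

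**Figure D3:**
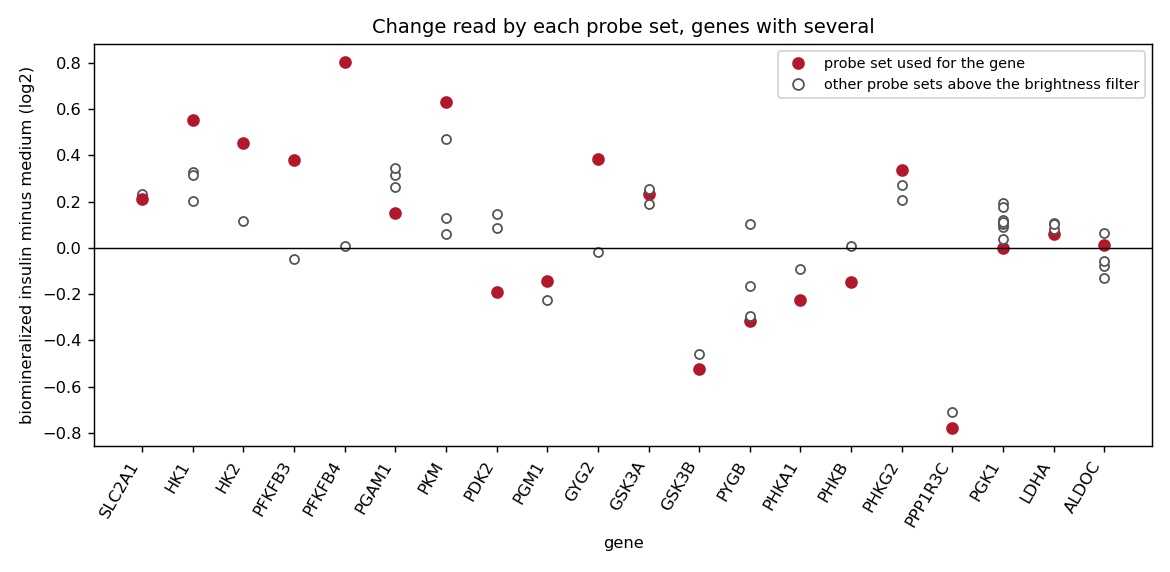
Change in log2 expression (biomineralized insulin minus medium) read by each probe set above the brightness filter, for called members with several and for PGK1, LDHA and ALDOC. The probe sets of HK1, PGAM1, GSK3A, GSK3B and PPP1R3C share a sign on the deposited scale. Those of PDK2, PFKFB3, PYGB, PHKB, GYG2, PGK1 and ALDOC do not.

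Of the 6 glycogen synthesis genes tested, 3 were called higher and 1 lower, where 25.7% of all tested genes were called higher and 25.2% lower. GYS1, the glycogen synthase of muscle and most other tissues, read 8.12, 8.01 and 8.20 log2 in medium, 8.10, 8.17 and 8.26 in insulin and 8.52, 8.51 and 8.64 in biomineralized insulin. All biomineralized arrays were above the rest, and medium and insulin overlapped. It rose 1.37-fold, by 0.45 (SE 0.060, interval 0.32 to 0.58, adjusted p = 8.90e-06), and changed by 0.045 after spike-in centring (adjusted p = 0.695). The liver synthase GYS2 read 2.26 to 2.72 over the 9 arrays. GBE1, the branching enzyme, rose by 0.21 (adjusted p = 0.000278), and GYG2, a glycogenin that primes new chains, by 0.38 (adjusted p = 0.0122). Spike-in centring gave -0.20 for GBE1 and -0.020 for GYG2. The second bright probe set of GYG2 read -0.017, and its call was lost without medium array 1 or biomineralized array 2 (highest adjusted p 0.0765).

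PGM1, which interconverts the glucose phosphates that feed glycogen, fell by 0.14 log2 (adjusted p = 0.0133), and by 0.55 after spike-in centring. Without medium array 1 its adjusted p was 0.0700. UGP2, which makes the activated glucose donor, and the glycogenin GYG1 were not called at -0.054 (-0.12 to 0.0082) and -0.088 (-0.21 to 0.030), and the other probe sets of GYG1 reached -0.20.

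The glycogen synthase kinases moved in opposite directions on the deposited scale. GSK3B, the beta form of the kinase that phosphorylates and restrains glycogen synthase, read 10.30, 10.32 and 10.35 log2 in medium, 10.24, 10.27 and 10.28 in insulin and 9.73, 9.88 and 9.78 in biomineralized insulin. The biomineralized arrays lay well below the others, and insulin lay just below medium. GSK3B fell 1.44-fold, by 0.52 log2 (SE 0.040, interval -0.61 to -0.44, adjusted p = 1.67e-08). Its second probe set read -0.46, and spike-in centring gave -0.93. Both probe sets of GSK3B are of the kind that can also read related transcripts, so it has no value without that kind. GSK3A, the alpha form, rose by 0.23 (interval 0.15 to 0.32, adjusted p = 9.57e-05), with 3 probe sets between 0.19 and 0.26. After spike-in centring GSK3A stood at -0.17 and was not called (adjusted p = 0.104).

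For glycogen breakdown, the phosphorylases divided on the deposited scale. PYGL, the liver phosphorylase, rose by 0.12 log2 (0.038 to 0.20, adjusted p = 0.0163), and PYGB, the brain form, fell by 0.31 (-0.45 to -0.18, adjusted p = 0.000524). Spike-in centring gave -0.28 and -0.72. The bright probe sets of PYGB ranged from -0.31 to 0.10. The PYGL call was lost without medium array 2 or biomineralized array 3 (highest adjusted p 0.0899). The muscle form PYGM read 3.19 to 3.71 over the arrays.

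Phosphorylase kinase, which activates phosphorylase, had its catalytic subunit PHKG2 higher by 0.34 log2 (interval 0.20 to 0.47, adjusted p = 0.000244), with 3 probe sets from 0.21 to 0.34. Its regulatory subunits PHKA1 and PHKB fell by 0.23 (adjusted p = 0.00455) and 0.15 (adjusted p = 0.0331), and PHKA2 was not called at 0.048 (-0.056 to 0.15). The second bright probe set of PHKA2 read 0.17, and PHKA2 was called higher when represented by it or by the mean of both, and lower at -0.36 after spike-in centring. After spike-in centring PHKG2 stood at -0.067, PHKA1 at -0.63 and PHKB at -0.55. The PHKB arrays of medium and biomineralized insulin overlapped, and the call was lost without any of 4 arrays (medium 1 and 2, biomineralized 1 and 3). The second bright probe set of PHKB read 0.0079.

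The largest fall among the 46 members was that of PPP1R3C, which targets protein phosphatase 1 to glycogen and favours its synthesis. It read 10.78, 10.79 and 10.72 log2 in medium, 10.81, 10.80 and 10.78 in insulin and 9.97, 10.00 and 9.98 in biomineralized insulin. The biomineralized arrays lay far below the rest and close to each other, while medium and insulin overlapped. PPP1R3C fell 1.72-fold, by 0.78 log2 (SE 0.033, interval -0.85 to -0.71, adjusted p = 1.18e-11). Its second probe set fell by 0.71, and spike-in centring gave -1.18.

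The other targeting subunits did not follow PPP1R3C as one group. PPP1R3B, the main form of liver, fell by 0.26 log2 (-0.42 to -0.10, adjusted p = 0.00769), and PPP1R3E rose by 0.23 (0.070 to 0.38, adjusted p = 0.0173). PPP1R3D was not called at 0.30 (adjusted p = 0.0535), nor was EPM2A, the glycogen phosphatase laforin, at -0.23 (adjusted p = 0.0518). After spike-in centring PPP1R3B stood at -0.66, PPP1R3E at -0.18 and PPP1R3D at -0.10. EPM2A was called in 8 of its 16 alternatives, among them without medium array 3 or biomineralized array 2, and stood at -0.64 after spike-in centring (adjusted p = 1.85e-06). The PPP1R3E call was lost without medium array 3 or biomineralized array 3 (highest adjusted p 0.0972), and that of PPP1R3D appeared without either of those arrays.

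Soluble insulin moved the set little over 4 h. Of 46 members 1 was called higher and 0 lower, 2.17%, where 2.45% of all tested genes were called (1.25% higher and 1.2% lower). The member called was PKM, which rose by 0.30 log2 (SE 0.051, interval 0.20 to 0.41, adjusted p = 0.00569), with the insulin arrays above the medium arrays. The 4 bright probe sets of PKM read 0.062, 0.13, 0.23 and 0.30. Its adjusted p was 0.355 without the probe sets that can read related transcripts and 0.796 after spike-in centring. The spike-ins differed by only 0.018 log2 between insulin and medium. That centring therefore hardly moved the PKM change, while the spread of the spike-ins between arrays entered it. HK1 changed by 0.15 (interval 0.066 to 0.23, adjusted p = 0.0580) and was called without medium array 3 (adjusted p = 0.0453) or insulin array 1 (adjusted p = 0.0362). The remaining members changed by -0.17 (PYGB) to 0.22 (GYG2). The medians of absolute change were 0.049 log2 over members and 0.056 over all genes.

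Biomineralized insulin was then set against insulin, which shares its dose, time and, by the tags, its cell form. This comparison shares the biomineralized arrays with the one against medium, so the values are given side by side and are not independent. Here 14 members were called higher and 7 lower, 45.7%, where 44.4% of all tested genes were called (21.1% higher and 23.3% lower). PPP1R3C was lower by 0.81 log2 (interval -0.88 to -0.75, adjusted p = 8.93e-12) and GSK3B by 0.47 (-0.55 to -0.38, adjusted p = 9.06e-08). PFKFB4 was higher by 0.66 (0.48 to 0.85), HK1 by 0.40 (0.32 to 0.49), PFKFB3 by 0.40 (0.30 to 0.50), HK2 by 0.38 (0.27 to 0.50) and GYS1 by 0.38 (0.25 to 0.51). Smaller differences were called for PKM (0.32), ENO2 (0.29), SLC2A1 (0.28) and GSK3A (0.26). UGP2 was lower by 0.14 (adjusted p = 0.000999).

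After spike-in centring of that comparison, 3 of the 14 higher members kept a positive difference and PFKFB4 alone was still called (0.28). All 7 lower members were still called lower, but this centring lowered every difference by 0.39 log2, so it could not turn a fall. On that scale 69.6% of members and 77.2% of all genes were called lower. Without the probe sets that can read related transcripts, the PKM difference was -0.0016 and the PFKFB3 difference 0.030. GSK3B had no probe set left in that setting. Calls for GBE1, PDK2, PDK3, PGAM1, PGM1 and PHKA1 were lost when some single array was left out.

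**Figure D4:**
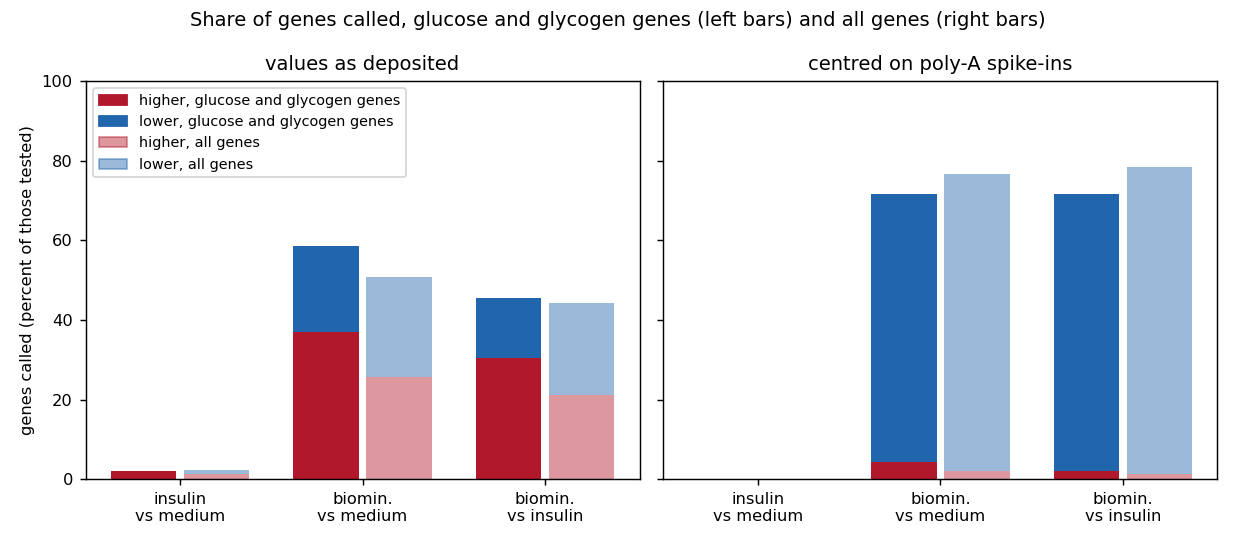
Share of tested genes called higher (red) or lower (blue) in each comparison, for the 46 members (left bar of each pair) and all 12240 genes (right bar), on the deposited scale and after centring on the poly-A spike-ins. With biomineralized insulin against medium, 37.0% of members and 25.7% of all genes were higher as deposited, and 4.35% and 2.23% after spike-in centring. The shares called lower were 21.7% and 25.2% as deposited, and 67.4% and 74.5% after spike-in centring.

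The neighbourhood of these steps was read from a list of 63 further genes of glucose and glycogen metabolism, of which 42 were tested. Against medium, biomineralized insulin gave 10 higher and 15 lower, 59.5% called, with a median change of -0.011 log2 where that of all genes was 0.022. Over all tested genes 50.9% were called, 25.7% higher and 25.2% lower. Insulin alone gave 0 higher and 3 lower, 7.14%, where 2.45% of all genes were called: PCK2 at -0.34, DLD at -0.15 and TXNIP at -0.13. Of 18 alternatives the PCK2 call was lost in 4 (among them without medium array 2 or insulin array 3), the DLD call in 9 (among them without medium array 1 or 2 or insulin array 1 or 3) and the TXNIP call in 14 (among them without any medium array or insulin array 1 or 3). The changes of at least 0.8 log2 with biomineralized insulin were all falls. All of the values in this and the next paragraphs that are negative were further below 0 after spike-in centring.

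PCK2, the mitochondrial enzyme that makes phosphoenolpyruvate, read 9.64, 9.70 and 9.66 log2 in medium, 9.28, 9.44 and 9.26 in insulin and 7.05, 6.89 and 7.12 in biomineralized insulin. The 3 groups stood apart. It fell by 2.65 log2 (SE 0.061, adjusted p = 6.27e-15), and its difference from insulin was -2.31. TXNIP, an arrestin that limits glucose uptake and is induced by glucose, fell by 1.77 (SE 0.031, adjusted p = 2.13e-16), from 11.98, 11.97 and 11.98 in medium to 10.16, 10.23 and 10.24. Its relative ARRDC4 fell by 0.89 (SE 0.077, adjusted p = 6.50e-08). PDP1, the phosphatase that undoes the action of the PDK enzymes, fell by 1.05 (SE 0.067, adjusted p = 1.75e-09), and SLC16A7, a monocarboxylate transporter, by 0.93 (SE 0.16, adjusted p = 0.000126).

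Further genes of the list were picked for naming after their values were seen, because they sit in families with members. PDK4, the fourth pyruvate dehydrogenase kinase, fell by 0.58 log2 (adjusted p = 4.37e-07). Of the other kinases, PDK3 was called higher, PDK2 lower and PDK1 not, on the deposited scale. The PDK2 and PDK3 calls were each lost when some single array was left out, and the other bright probe sets of PDK2 rose. ENO3, the muscle enolase, fell by 0.54 (adjusted p = 4.96e-08) while ENO2 rose. PPP1R3G rose by 0.40 (adjusted p = 0.000197) and PPP1R3F fell by 0.24 (adjusted p = 0.0336). MLXIPL, the glucose-sensing factor ChREBP that drives TXNIP and liver PKLR, fell by 0.50 (adjusted p = 0.000127). Its relative MLXIP rose by 0.46 (adjusted p = 4.30e-07) and their shared partner MLX by 0.30 (adjusted p = 1.10e-05). After spike-in centring PPP1R3G stood at -0.0063, MLX at -0.11 and MLXIP at 0.053. Of the mitochondrial pyruvate genes, MPC2, a carrier subunit, fell by 0.37 and DLD, a dehydrogenase subunit, by 0.36.

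**Figure D5:**
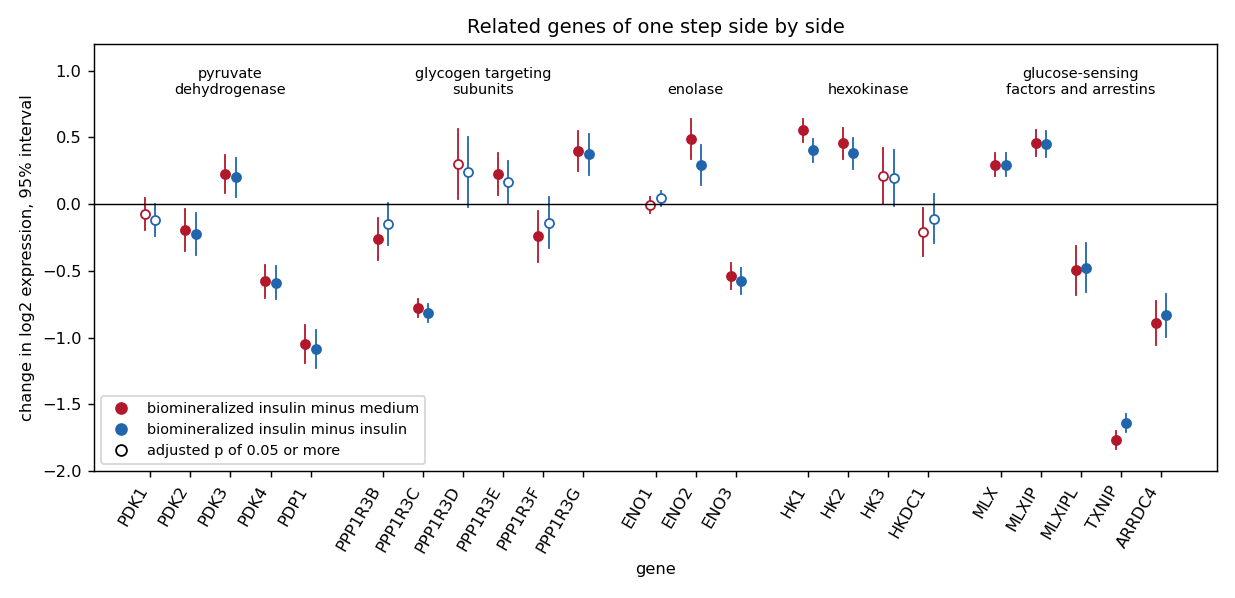
Change in log2 expression with 95% intervals for genes of related function, biomineralized insulin minus medium (red) and minus insulin (blue), on the deposited scale. Filled points have an adjusted p under 0.05. The points of each family lie on both sides of 0 on this scale, from TXNIP at -1.77 to HK1 at 0.55 against medium, and spike-in centring would move the red points down by 0.40 and the blue points by 0.39.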

How the data were processed

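Gene expression was measured on 9 one-colour arrays, 3 for each of 3 groups taken from the sample titles. The deposited values are log2 expression per probe set, running from 2.02 to 14.3. Their summarisation and normalization by the authors are not given in the sources used here. Precision is limited by the few arrays. Of the 49395 probe sets, 44988 carried 1 gene in the platform annotation, 1832 several, 2473 none and 102 were controls, and 44961 symbols were updated through the RefSeq table. The dimmest 40% of probe sets (mean below 4.74) were left out. Each gene took its probe set with the highest mean, which left 12240 of 18132 genes. One limma model over all arrays (limma 3.58.1, R 4.3.3, intensity trend, 6 residual degrees of freedom, no replicate block) gave changes, standard errors and Benjamini-Hochberg adjusted p-values over all tested genes. Genes under 0.05 are called. In simulated data the fit recovered 22.4% to 28.4% of changes of 0.2 log2 over the 3 comparisons. It recovered 77.6% to 80.6% of changes of 0.4 log2 and 95.5% to 100% of 0.8 log2, with 4 to 10 false calls. Most changes of 0.2 log2 were thus missed there. Only 66 or 67 genes of each size changed in it, far fewer than were called here with biomineralized insulin. The members, lists, tests and alternatives were chosen with earlier results of these data known. Members were described in full if called, with groups apart and a change of at least 0.4 log2 in some comparison, or if called with insulin; further pathway genes were named from 0.8 log2 against medium. Promoters came from RefSeq and were found for 44 members. Figures used matplotlib 3.10.9.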

Additional observations from a re-analysis of the deposited data

How the results depend on the processing

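Centring on the poly-A spike-ins changed the most. Against medium, biomineralized insulin then gave 9393 changed genes of all tested (273 higher, 9120 lower), and against insulin 9611 (165 higher, 9446 lower). Among members it gave 33 against insulin (1 higher, 32 lower), and soluble insulin gave 7 genes and 0 members against medium. Among members and named pathway genes that were called on either scale, signs that turned under this centring against medium were SLC2A1 -0.19, SLC2A4 -0.38, GCKR -0.34, PFKP -0.30, PFKFB3 -0.023, ALDOA -0.39, ALDOC -0.39, PGAM1 -0.25, LDHA -0.34, LDHB -0.38, PDK3 -0.18, GYG2 -0.020, GBE1 -0.20, GSK3A -0.17, PYGL -0.28, PHKA2 -0.36, PHKG2 -0.067, PPP1R3E -0.18, MLX -0.11 and PPP1R3G -0.0063 (log2), and PPP1R3D, called on neither scale, turned to -0.10. Against insulin they were SLC2A1 -0.11, SLC2A4 -0.35, HK2 -0.0043, GCKR -0.39, PFKP -0.36, ALDOA -0.36, PGK1 -0.37, PGAM1 -0.30, ENO1 -0.34, ENO2 -0.10, PKM -0.062, LDHA -0.37, PDK3 -0.19, GYS1 -0.0059, GBE1 -0.25, GSK3A -0.13, PYGL -0.25, PHKA2 -0.28, PHKG2 -0.15, MLX -0.090 and PPP1R3G -0.012. PPP1R3D (-0.14), PPP1R3E (-0.22) and GYG2 (-0.22) also turned there, called on neither scale. Without probe sets that can read related transcripts, PFKFB3 stood at -0.047 and PGK1 at 0.092 against medium, and PKM at -0.0016 against insulin. PGK1 read 0.19 with the probe set of largest variance and 0.11 as the mean of its probe sets, where PDK2 read 0.014.

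For insulin against medium, the count over all genes (300) was 197 after median centring, 152 when fitted on those 6 arrays alone, 177 when genes took their most variable probe set, 199 without probe sets that can read related transcripts, 37 without the intensity trend and 604 with array weights. Leaving out 1 array gave 57 to 425 genes and 1 to 2 members, with 62 without medium array 2 and 57 without insulin array 3. The count of members (1) was 2 with quantile normalization, with the dimmest 60% left out and with array weights, and 0 without the intensity trend and without probe sets that can read related transcripts; the cause was not tested. Same-numbered arrays of different groups deviated with correlations of -0.23 to 0.17, and differently numbered ones with -0.36 to 0.34. These values show no shared effect of the number but cannot exclude pairing. The labels do not say whether equal numbers share a culture or batch. With the number as a replicate block, the counts were 226, 6082 and 5302 genes and 1, 28 and 21 members for insulin against medium, biomineralized insulin against medium and biomineralized insulin against insulin. Against medium, 18 of the 27 members called with biomineralized insulin stayed called without any 1 array. Dim probe sets limit what can be said of SLC2A2, PKLR, GYS2 and PYGM.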
